A study of Mus musculus with 29 samples.

Results

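MdC3 is 1 of 6 subtypes, coded MdC1 to MdC6, into which the depositors' annotation divides the monocyte-derived cells (MdC) of the mouse brain. Its members were taken as every brain cell with the parent code MdC and the subtype code MdC3, which gave 2078 cells out of 12553 monocyte-derived cells and 55268 brain cells. MdC1 held 2947 cells, MdC2 2805, MdC4 2039, MdC5 1467 and MdC6 1217. Gene expression was measured by Drop-seq, in which each cell is captured in a droplet with a barcoded bead and its transcripts are counted. The study compared brains in which the middle cerebral artery had been blocked for a time, a model of ischaemic stroke, with brains after sham surgery.

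All mice were C57BL/6J. The young mice were males aged 8 to 10 weeks, with 4 libraries each for sham taken 2 days after surgery, for stroke taken after the same 2 days, and for stroke taken after 14 days. The aged mice were 17 to 20 months old. They are represented by sham libraries from 1 male and 1 female pool, day 2 stroke libraries from 1 male and 2 female pools, and a single female library for day 14. Each library pooled 4 to 5 hemispheres, and the cells of all groups were digested with papain in the presence of Brilliant Blue G, actinomycin D and AP-5, which block a purinergic receptor, transcription and the NMDA receptor. Endothelial cells, microglia and CD45high leukocytes were sorted and combined, so a share of all cells also depends on how many of each were loaded. There was no sham library at day 14, and stroke and time since surgery therefore cannot be told apart in any comparison of day 14 with sham. Age likewise cannot be told apart from the gene table used, which differed between young and aged libraries, and it goes in part with sex, since the young mice were all male and most aged libraries female. The labels do not say whether libraries of a group came from independent mice on separate days, and the p-values below measure only the spread between these libraries.

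Monocytes leave the bone marrow, circulate in the blood and enter injured brain tissue, where they differentiate into macrophages and dendritic-like cells. Classical mouse monocytes carry Ly6C and the chemokine receptor CCR2 and are recruited to inflamed tissue. Nonclassical monocytes have low Ly6C, depend on the nuclear receptor NR4A1 and patrol the vessel wall. As these cells mature in tissue they lose monocyte genes and gain genes of phagocytosis, lipid handling and antigen presentation.

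Brain libraries held 1143 to 5121 cells and 819438 to 5855047 counts, and the MdC3 cells of a library numbered 29 to 322 with 11134 to 399405 summed counts. The median MdC3 cell held 306 to 1523 counts, so genes of low expression were poorly sampled in the libraries with few MdC3 cells, of which young sham replicate 4 was the smallest. Of 55174 barcodes, 91 occurred in more than 1 library, and 91 such pairs are the number expected from random barcodes of 12 bases. Libraries fell into 2 sets by the median percent of mitochondrial counts per cell, below or above 1: sham replicate 1, stroke day 2 replicates 1 and 2, and stroke day 14 replicates 1 and 2 of the young mice were below it. Both sets held all 3 young groups.

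The label was checked against marker lists, given in CPM, a gene's count scaled to a common total of MdC3 counts, summed over the list and pooled over the young libraries. The monocyte or macrophage list stood at 53712 CPM in MdC3, far above every other list. The border-associated macrophage list was next at 1134 CPM, and F13a1, which monocytes also express, gave 1432 of its counts. The neutrophil list stood at 627 CPM and the microglial list at 273 CPM. The T cell list had 6 of 7 genes at 0 counts, the NK cell list 4 of 6 and the mural cell list 5 of 6. MdC3 thus carried the markers of its parent class, with traces of neutrophil and microglial transcripts that differed between groups. The neutrophil list ranged from 247 to 4982 CPM over the sham libraries (median 1696), from 200 to 777 CPM at stroke day 2 (275) and from 51.1 to 241 CPM at stroke day 14 (86.2). The microglial list ranged from 26.6 to 293 CPM in sham (91.9), from 128 to 395 CPM at day 2 (242) and from 118 to 555 CPM at day 14 (325).

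MdC3 made up most of the few monocyte-derived cells of sham brain and a small fraction of the many present after stroke. In young sham brain, MdC3 was 73.7%, 70.2%, 91.5% and 67.4% of the monocyte-derived cells in replicates 1 to 4, a mean of 75.7% ± 10.8 (SD, n = 4). At stroke day 2 the shares were 16.6%, 11.8%, 14.1% and 16.5%, a mean of 14.7% ± 2.29 (SD, n = 4). At stroke day 14 they were 8.09%, 13.5%, 10.3% and 20.1%, a mean of 12.99% ± 5.22 (SD, n = 4). Every sham library lay above every stroke library, and the stroke days overlapped. The difference from sham was -60.97 percentage points at day 2 and -62.73 at day 14, each with p = 0.0286 in an exact two-sided permutation test over libraries, the smallest value that 4 against 4 libraries allow, and 0.0429 after Benjamini-Hochberg adjustment over 6 share tests. Between the stroke days the difference was -1.75 percentage points (exact permutation p = 0.514, adjusted 0.514). Within the libraries of low mitochondrial share the group means were 73.7% (1 library), 14.2% (2) and 10.8% (2) for sham, day 2 and day 14, and within those of high share 76.4% (3), 15.3% (2) and 15.2% (2).

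Counted against all sorted cells, MdC3 was more frequent at stroke day 2 than in sham. It made up 2.11%, 1.40%, 2.46% and 0.763% of the cells of the 4 sham libraries, 9.10%, 5.79%, 8.88% and 5.39% at stroke day 2, and 2.18%, 2.49%, 2.89% and 3.36% at stroke day 14. Day 2 lay above both other groups without overlap, and day 14 overlapped with sham. The mean share was 5.61 percentage points higher at day 2 than in sham (exact permutation p = 0.0286, adjusted 0.0429) and lower at day 14 than at day 2 by a difference of -4.56 points (exact permutation p = 0.0286, adjusted 0.0429). With same-numbered stroke libraries taken as pairs, all 4 pairs were lower at day 14, and the adjusted p of the exact test of signs was 0.15, as 4 pairs are too few to pass. The difference between day 14 and sham, 1.05 points, did not pass (exact permutation p = 0.0571, adjusted 0.0686). Among leukocytes other than microglia, MdC3 held 10.9% ± 3.53 in sham, 11.1% ± 1.67 at day 2 and 5.54% ± 1.62 at day 14 (SD, n = 4 each), so the higher share of all cells at day 2 was not seen with this denominator, where the difference from sham was 0.149 points. Within the low mitochondrial set the shares of all cells averaged 2.11%, 7.44% and 2.34% for sham, day 2 and day 14, and within the high set 1.54%, 7.13% and 3.12%.

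In the aged libraries MdC3 was 97.0% and 92.3% of the monocyte-derived cells of the sham brains. At stroke day 2 it was 11.1%, 13.8% and 14.7%, a mean of 13.2% ± 1.89 (SD, n = 3), within the range of the young day 2 libraries apart from the lowest. The aged and young day 2 libraries differed by -1.55 percentage points (exact two-sided permutation p = 0.4, where 3 against 4 libraries cannot give less than 0.0571). The single aged library of day 14 stood at 49.4% (95% exact binomial interval 38.5% to 60.4%, counting error only), above all 4 young day 14 libraries, and rested on 43 MdC3 cells among 87.

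The other subtypes filled the pool after stroke. At day 2 MdC1 averaged 31.5% and MdC2 28.8% of the young monocyte-derived cells, beside 12.5% for MdC4, 9.56% for MdC5 and 2.84% for MdC6. At day 14 MdC6 averaged 34.0%, MdC4 24.8% and MdC5 22.6%, while MdC1 averaged 1.91% and MdC2 3.73%. MdC3 had a share of at least 8.09% in every young library of all 3 groups. The plot of MdC3 shares by library gives these values.

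**Figure D1:**
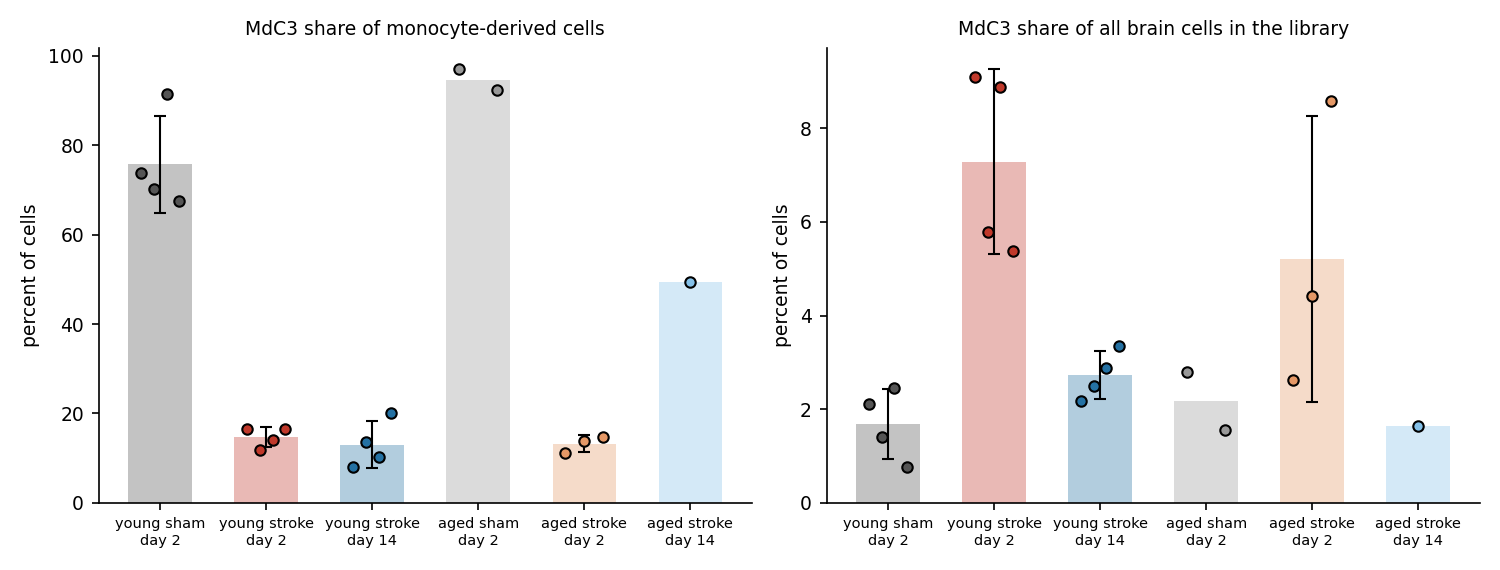
MdC3 cells as a percent of the monocyte-derived cells (left) and of all cells (right) of each brain library; points are libraries, bars group means and whiskers 1 SD where a group has at least 3 libraries. The 4 young sham libraries sit between 67.4% and 91.5% on the left, all above the young stroke libraries, and the stroke day 2 libraries are highest on the right among the young.

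The genes that set MdC3 apart from the other monocyte-derived cells are a description and carry no test, since the subtypes were cut from the same expression values. Within each of 14 libraries with at least 20 MdC3 and 20 other monocyte-derived cells, a log2 ratio of MdC3 over the other cells was taken on CPM + 10. Of 3368 genes that averaged 50 CPM or more in the higher class, 62 were higher in MdC3 in every library with a median ratio of at least 2-fold, and 61 were lower in every library by the same measure.

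Genes of circulating monocytes, several of them also high in granulocytes, headed the higher end. Tppp3, a tubulin polymerisation promoting protein, had the highest median log2 ratio of the genes named by rule, 2.60. Its mean was 194 CPM in MdC3 and 22.5 CPM in the other cells. Ifitm6, of the interferon-induced transmembrane family, followed at 2.32 (1487 against 334 CPM), and Add3, an adducin of the membrane skeleton, at 2.29 (241 against 35.8 CPM). Hp, which encodes haptoglobin, was 1140 CPM in MdC3 against 287 CPM. Pooled over the young libraries, granulocytes held more than MdC3 of Ifitm6 (3458 against 1565 CPM) and Hp (3370 against 1297 CPM). The same was so for Gsr, Nfe2 and Trem3, given below. Tppp3, Add3 and Chil3 were lower in granulocytes than in MdC3. Of the genes in this paragraph, Chil3, a chitinase-like protein of Ly6C-high monocytes and neutrophils, was the most abundant, with 3765 against 1649 CPM (median log2 ratio 1.47).

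Other genes at the higher end act in redox defence, adhesion and transcription. Mgst1, a microsomal glutathione transferase, had a median log2 ratio of 1.82 and Gsr, glutathione reductase, 1.77. Itga4, the α4 integrin through which leukocytes bind VCAM-1, stood at 1.62 and Cytip, a regulator of integrin adhesion, at 1.71. Nfe2, a transcription factor of myeloid and erythroid cells, was at 1.88 but at only 62.5 CPM. Lsp1, an actin-binding protein of leukocytes, was at 1.51 and Napsa, an aspartic protease, at 1.62. Other genes named by the rule, Fam49a, Ccdc88c, Trem3, Nxpe4, Rassf4 and Treml4, lay between 1.56 and 1.81.

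The lower end held interferon-induced and tissue macrophage genes. Ifit3, an interferon-induced antiviral protein, had the lowest median log2 ratio of the genes named by rule, -2.83. Cxcl10, an interferon-induced chemokine, followed among them at -2.67 (67.1 against 454 CPM in the other cells). C3ar1, the receptor of the complement fragment C3a, stood at -2.60 (54.6 against 300 CPM). Rsad2, an antiviral radical SAM enzyme, was 61.0 CPM in MdC3 against 411 CPM, and Isg15, a ubiquitin-like interferon-induced modifier, 200 CPM against 803 CPM (median -2.04). Rgs1, a regulator of G protein signalling, stood at -2.38, Mmp14, a membrane-bound matrix protease, at -2.37, and Basp1 and Tmem86a at -2.03 and -1.97. Apoe, the lipid carrier apolipoprotein E, was 5292 CPM in MdC3 and 23534 CPM in the other cells (median -1.93). In the single aged day 14 library the Apoe ratio was -8.50, against -2.97 to -1.33 in the others, and MdC3 held 30.1 CPM of Apoe there.

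**Figure D2:**
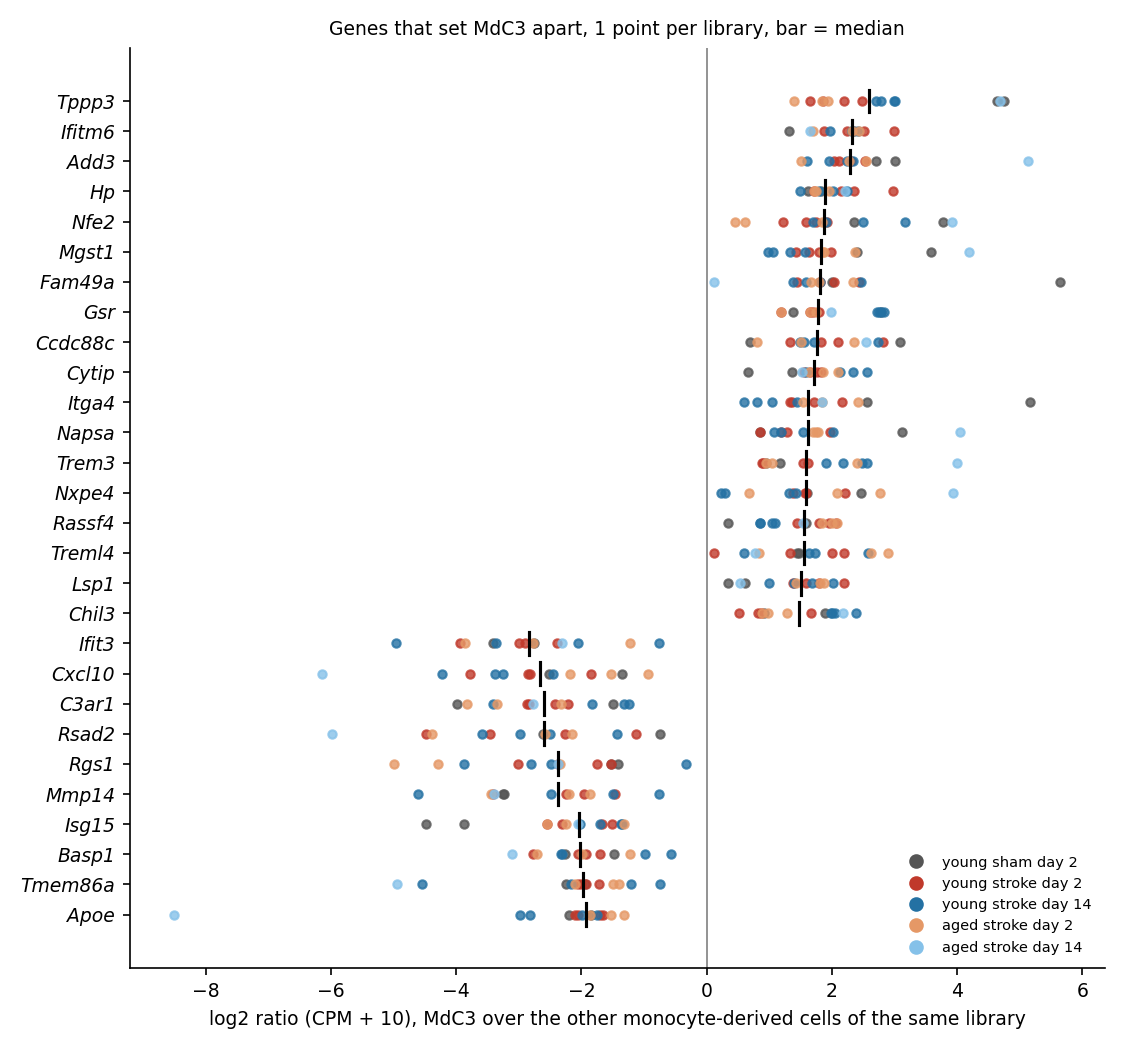
Log2 ratio of MdC3 over the other monocyte-derived cells of the same library, on CPM + 10. Genes are among the 20 highest and 10 lowest medians of the genes that the naming rule kept. The rule leaves out genes that another brain cell type holds at more than 10 times the MdC3 level. Points are 14 libraries coloured by group and vertical bars are medians. Tppp3 (median 2.60) to Chil3 (1.47) lie right of 0 in every library and Ifit3 (-2.83) to Apoe (-1.93) left of 0.

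By gene list, MdC3 was richer in monocyte genes and poorer in genes of tissue macrophages. Across all 6137 genes at 20 CPM or more, the median log2 ratio was 0.03, and 2.18% were higher and 1.52% lower in MdC3 in every library. Of 14 classical monocyte genes, 8 were higher in every library and none lower, with a list median of 0.77. They included Plac8 (median log2 ratio 1.06), S100a4 (0.64) and Lyz2 (0.54), the lysozyme gene, which at a mean of 36863 CPM was the most abundant of the list. Ly6c2, which encodes Ly6C, was higher in only 9 of 14 libraries (0.39), and pooled over young libraries it reached 1727 CPM in MdC3, 3598 CPM in MdC4 and 433 CPM in MdC1. The nonclassical list had the highest median of all lists, 1.31, with 3 of 12 genes higher in every library and none lower.

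The macrophage lists lay on the other side. Of 14 macrophage maturation genes, 10 were lower in every library and none higher (list median -1.36). The complement genes C1qb, at -2.43, and C1qa, at -2.11, were among them, whereas Csf1r, the receptor of the macrophage growth factor, stood at -0.01. Of 9 MHC class II presentation genes at 20 CPM or more, 5 were lower in every library (-0.76), among them H2-Ab1 at -2.66 and Cd74, the invariant chain, at -1.69. These genes were concentrated in MdC5, where pooled Cd74 reached 13701 CPM against 809 CPM in MdC3. The interferon response list had 7 of 17 genes lower in every library and a median of -1.40. The lipid and phagolysosome list had 2 of 19 lower and a median of -0.997, and Spp1, which encodes osteopontin, stood at -3.75 but was lower in 13 of 14 libraries. Chemokines and cytokines had 6 of 17 lower (-1.18), with Ccl4 at -2.01, while Il1b was 5310 CPM in MdC3 and 7220 CPM in the other cells (-0.23).

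Lists of general cell function differed less. All 17 ribosomal protein genes had a median ratio above 0, with a list median of 0.49, although none was higher in every library. The oxidative phosphorylation list had a median of 0.01 and the glycolysis and hypoxia list -0.44, each with 0 of 16 genes on the same side in every library. The iron, haem and antioxidant list stood at -0.65, where Fth1, ferritin heavy chain, was 9421 CPM in MdC3 and 21163 CPM in the other cells. Complement and Fc receptors had 5 of 13 lower (-0.65), alternative activation and repair 1 of 11 higher and 1 lower (-0.60), NF-kB feedback and early response 2 of 14 higher and 3 lower (-0.32), and migration and adhesion 1 of 15 higher (0.37). Only 3 of 15 proliferation genes reached 20 CPM.

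Across genes, MdC3 was the monocyte-derived subtype most like blood monocytes. Spearman's rho of pooled log2 CPM across 7048 genes, a description over genes that are not independent, was 0.867 between MdC3 and 6558 blood monocytes from the 11 blood libraries of the same series. The other subtypes gave 0.762 for MdC5, 0.748 for MdC2, 0.741 for MdC4, 0.690 for MdC1 and 0.683 for MdC6. Within the brain, rho with MdC3 was 0.914 for MdC2, 0.900 for MdC5, 0.818 for dendritic cells, 0.767 for border-associated macrophages, 0.693 for granulocytes and 0.660 for microglia. The order depended on the measure: the median absolute log2 difference from MdC3 was 0.258 for MdC5 and 0.266 for MdC2, and 0.493 for microglia and 0.795 for granulocytes. Blood tables were deposited separately from brain tables and the tissues were prepared differently, so tissue and preparation cannot be told apart in these levels.

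Several MdC3 genes stood near their blood monocyte level. Ifitm6 was 1565 CPM in pooled young MdC3 and 1319 CPM in blood monocytes, Hp 1297 and 1221 CPM, and Tppp3 213 and 181 CPM. Others were far above it. Il1b, which encodes the cytokine interleukin-1β, was 4234 CPM in MdC3 and 152 CPM in blood monocytes, where single libraries reached at most 423 CPM. Fth1 was 10364 against 2689 CPM, Mt1, which encodes a metal-binding metallothionein, 530 against 64.3 CPM, and Ccl2, a monocyte chemoattractant, 245 against 18.5 CPM. Klf2, a transcription factor of quiescent leukocytes, was lower in pooled MdC3, 167 against 653 CPM. Most counts of this pool came from the stroke day 2 libraries. Klf2 was higher in every young sham library than at stroke day 2, and Mt1 also differed between groups, as given below. The pooled levels therefore do not stand for each group.

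MdC3 was not uniform, and nonclassical monocyte genes were detected in a minority of its cells. With so few counts per cell, a cell that expresses such a gene can show none. The shares below therefore describe detection and not the number of cells that express these genes. Cells with an expected count of at least 0.5 for any of Ace, Treml4, Adgre4, Spn or Ear2 made up 31.5%, 33.3%, 21.3% and 13.8% of MdC3 in the 4 young sham libraries. They were 19.3%, 5.18%, 16.0% and 18.2% at stroke day 2 and 24.6%, 15.2%, 9.09% and 8.14% at day 14, overlapping with sham. With each cell thinned to 300 counts and shallower cells left out, the shares were 18.04% in sham (35 of 194 cells), 8.01% at day 2 (70 of 874) and 7.95% at day 14 (21 of 264), and between libraries 11.8% to 19.6%, 3.25% to 10.3% and 5.75% to 15.7%. In the other subtypes, pooled over the libraries of a group, the thinned share was at most 3.85%, and at most 1.97% where at least 100 cells entered. In single libraries with at least 100 such cells it reached 2.79%, in MdC5, close to the lowest MdC3 library at 3.25%. With fewer cells it reached 20.0%, which was 1 of 5 MdC6 cells. The 2 aged sham libraries had 40.6% and 39.6% of MdC3 cells with such a marker before thinning, and the aged stroke libraries between 9.52% and 17.0%.

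Marker-bearing cells of sham brain also differed in genes that did not define them. In pooled young sham MdC3, Ly6c2 was 409 CPM (95% Poisson interval 253 to 627) in the 65 cells with a marker and 1047 CPM (868 to 1253) in the 178 cells without. Ccr2 was 1389 CPM (1084 to 1754) against 2600 CPM (2313 to 2914), and Pglyrp1, a nonclassical monocyte gene, 290 CPM (162 to 481) against 74.0 CPM (32.8 to 143). The aged sham libraries showed the same order, with Ccr2 at 259 CPM (95.2 to 565) in 32 cells with a marker and 2343 CPM (1882 to 2884) in 48 cells without. These intervals cover counting error only, and since cells were split by genes of the same cells no test is given.

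Blood monocytes of the subtype Mo3 held most of the same markers, with Ear2 at 1248 CPM, Treml4 at 656 CPM and Ace at 433 CPM, against at most 173 CPM, 124 CPM and 133 CPM in the other blood monocyte subtypes. MdC3 as a whole stood closer to Mo1 and Mo2, with rho of 0.855 and 0.858, than to Mo3, with 0.783.

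The comparison of stroke days asked whether MdC3 cells differed in state between the acute and the later phase. Counts were summed over the MdC3 cells of each young library and fitted with edgeR's quasi-likelihood test over 1630 genes, with Benjamini-Hochberg adjustment. Between day 14 and day 2, 5 genes passed an adjusted p of 0.05, which is 0.307% of the genes tested: 1 higher at day 14 (0.0613%) and 4 lower (0.245%). At an unadjusted p under 0.05 there were 173 genes, and DESeq2 called 9. With the replicate number as a block over the stroke libraries, where same-numbered libraries deviated together, edgeR called 10 genes, 5 in each direction. The count was 3 without day 14 replicate 1 and 9 without day 14 replicate 4. The lower genes of the fit without a block were acute-phase and metal-response genes.

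Saa3, an acute-phase serum amyloid A made by macrophages, was 529, 1255, 691 and 1023 CPM in the day 2 stroke libraries and 0, 24.0, 11.4 and 0 CPM at day 14. It was also high in the day 2 sham libraries, at 1012, 1251, 192 and 1872 CPM. All 8 day 2 libraries lay above all 4 day 14 libraries. The pooled day 14 level was 0.00951 times the day 2 stroke level, with a 95% counting interval of 0.00121 to 0.0361, from 2 counts at day 14. The fitted log2 change was -6.65 ± 0.83 (SE; adjusted p = 0.00084 by edgeR), a value that depends on the prior count of the fit at so few counts.

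Lrg1, a secreted leucine-rich glycoprotein of the acute phase, had the same pattern. Its level was 225, 405, 302 and 396 CPM at day 2 of stroke, 303, 391, 283 and 51.4 CPM in sham, and 0, 0, 9.66 and 0 CPM at day 14, with 1 count in all at day 14. The ratio of day 14 to day 2 was 0.00957 (counting interval 0.000313 to 0.0695), with a fitted log2 change of -6.11 ± 0.66 (edgeR adjusted p = 0.000281). Against sham the fitted log2 changes were -6.84 for Saa3 and -5.91 for Lrg1, both with an edgeR adjusted p of 0.000765. The sham and day 2 stroke libraries overlapped for both genes, and no day 14 sham library exists against which surgery and time could be separated.

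Mt1 was 571, 918, 651 and 707 CPM at stroke day 2 and 186, 165, 112 and 76.0 CPM at day 14, without overlap. The log2 change was -2.34 ± 0.35 (edgeR adjusted p = 0.00438). The sham libraries held 260, 417, 331 and 85.8 CPM, of which the first 3 lay between the stroke days and replicate 4 within the day 14 range. Lcn2, which encodes the iron-sequestering lipocalin-2 and is far more abundant in neutrophils, was called as well, a gene outside the naming rule for that reason. It was 51.8, 66.8, 97.3 and 134 CPM at stroke day 2, 240, 244, 341 and 247 CPM in sham and 0 in all 4 day 14 libraries, so it was at least 7.59-fold lower than at day 2 and at least 23.3-fold lower than in sham (floor of 3 counts over the group). The difference between stroke days had an edgeR adjusted p of 0.0169, and of 0.0725 and 0.0524 without day 14 replicate 1 or 3.

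Neutrophil transcripts moved in the same direction as these genes, and their part in the result was not tested. Some values bear on it. Saa3 was 756 CPM in MdC3 and 58.8 CPM in granulocytes at stroke day 2, and 944 against 8.55 CPM in sham, so MdC3 held more of it than granulocytes. Lrg1 was 304 CPM in MdC3 at day 2 and 3343 CPM in granulocytes, 9.09% of the granulocyte level. For other neutrophil genes this figure varied widely at day 2. It was 4.93% for Csf3r, 2.76% for Lcn2, 0.223% for S100a8, the most abundant neutrophil gene, 1.25e-08% for S100a9 and 4.05e-08% for Retnlg. In sham it was 14.0% for Lrg1, 17.1% for Csf3r, 3.58% for Lcn2, 1.45% for S100a8, 0.600% for S100a9 and 0.0538% for Retnlg.

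In aged stroke libraries Saa3 was 4082, 1035 and 1967 CPM at day 2 and 879 CPM in the single day 14 library. That library lay within the range of the day 2 libraries of young mice and above the young day 14 libraries. Lrg1 was 599, 465 and 675 CPM in the aged day 2 stroke libraries and 44.9 CPM at day 14. Mt1 was 2567, 708 and 1131 CPM at day 2 and 30.7 CPM at day 14.

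The higher gene at day 14 was C1qa, a subunit of complement C1q. It was 485, 147, 383 and 155 CPM at day 14, 60.5, 48.9, 29.1 and 31.4 CPM at day 2 of stroke, and 93.5, 132, 7.92 and 0 CPM in sham. The log2 change between stroke days was 2.87 ± 0.51 (edgeR adjusted p = 0.0169). All 4 day 14 libraries lay above all day 2 stroke libraries, but the call did not hold without day 2 replicate 1, 3 or 4 or without day 14 replicate 1 or 3 (edgeR adjusted p = 0.0546, 0.0878, 0.112, 0.18 and 0.0877). When the 5% of monocyte-derived cells with most counts were left out, as a guard against doublets, C1qa fell under the filter on low counts and was not tested. Microglia held 8072 CPM of C1qa at day 14, and MdC3 stood at 4.03% of that level, beside 2.59% for Tmem119 and 0.552% for P2ry12, which define microglia. The part of microglial transcripts in this value was not tested.

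At stroke day 2 against sham the question was how MdC3 of injured brain differed from the MdC3 cells found after surgery alone. No gene passed in edgeR (0 of 1630 genes, 0%), while 218 stood below 0.05 before adjustment, and 18 were called by DESeq2. Klf2 and Ifitm1 came closest, and they and the following genes were named after their values were seen. Klf2 was 503, 229, 598 and 510 CPM in sham and 129, 54.5, 62.2 and 149 CPM at stroke day 2, without overlap (log2 difference -2.15 ± 0.37, adjusted p = 0.0582 by edgeR and 0.000684 by DESeq2). Ifitm1, an interferon-induced membrane protein, was 75.7, 76.0, 24.7 and 0 CPM in sham and 295, 384, 501 and 399 CPM at day 2, again without overlap (2.76 ± 0.50, edgeR adjusted p = 0.0582, DESeq2 0.00373). Adgre4, an adhesion receptor of nonclassical monocytes, was 162, 230, 190 and 262 CPM in sham and 55.9, 90.2, 36.3 and 62.7 CPM at day 2 (-1.79 ± 0.39, edgeR adjusted p = 0.0957, DESeq2 0.0307). With the mitochondrial set of the library as a term, edgeR called 4 genes, 2 in each direction.

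Of 144 listed genes tested, edgeR called 0, with 38 at an unadjusted p under 0.05, and DESeq2 called 4: Fcgr1, a high-affinity Fc receptor, with a higher level, and Adgre4, Klf2 and Nfkbiz with lower ones. List medians and calls below are from edgeR, beside a median of all genes of -0.01. A gene could pass the filter on low counts through the libraries of 1 group alone, such as stroke for a gene low in sham. The signs and medians of tested list members are therefore not independent of the filter. The interferon response list had 7 of 17 genes tested, all 7 with a fold change above 0 and a median of 0.99, with 0 called by either tool and 3 at an unadjusted p under 0.05 in edgeR. The nonclassical list had 5 of 12 tested, all 5 below 0, with a median of -0.77, 0 called and 4 at an unadjusted p under 0.05, and DESeq2 called Adgre4. Its summed level was 2257 to 3496 CPM in sham and 1419 to 1814 CPM at stroke day 2, without overlap. The oxidative phosphorylation list had all 16 genes above 0 with a median of 0.31, and neither tool called any of them or had one at an unadjusted p under 0.05.

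At day 14 against sham, 11 genes passed in edgeR, 0.675% of those tested, of which 7 were higher (0.429%) and 4 lower (0.245%). At an unadjusted p under 0.05 there were 180, and DESeq2 called 34. The comparisons of day 14 with sham and with day 2 share the day 14 libraries, and those of day 2 and day 14 with sham share the sham libraries. Isg15 and Oasl2, both interferon-induced, rose. Isg15 was 24.6, 26.0, 51.2 and 86.4 CPM in sham, 154, 158, 202 and 114 CPM at stroke day 2 and 400, 328, 339 and 259 CPM at day 14. Each group lay above the one before it without overlap. The log2 change from sham to day 14 was 3.19 ± 0.42 (edgeR adjusted p = 0.00103). Oasl2, an oligoadenylate synthetase-like protein, was 12.6, 0, 0 and 0 CPM in sham, 126, 63.8, 118 and 39.0 CPM at day 2 and 271, 142, 252 and 122 CPM at day 14. Sham held 1 count of Oasl2 in all, and the pooled ratio of day 14 to sham was 34.8 (95% counting interval 5.99 to 1397), with an edgeR adjusted p of 0.00952 that became 0.0623 without sham replicate 1.

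Of the 17 genes of the interferon list 7 were tested, all above 0, with a median log2 change of 1.79 against 0.02 for all genes. Of the 7, 2 were called by edgeR and 4 by DESeq2. Isg15 and Oasl2, low in sham, passed the filter on low counts through the stroke libraries, so these signs and this median are partly set by the filter. The summed level of the list over all 17 genes, which needed no filter, was 240 to 938 CPM in sham, 1096 to 2053 CPM at stroke day 2 and 2347 to 3303 CPM at day 14, with no overlap between groups. It remained below that of the other monocyte-derived cells of the same library in every young library, which held 6823 to 7609 CPM at day 14. Bst2, Ifi204 and Irf7 had log2 differences of 2.29, 1.45 and 1.29 and did not pass (edgeR adjusted p = 0.066, 0.058 and 0.185).

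Promoter sequence is shown for Isg15 and Saa3, the genes with the clearest opposite patterns, from 250 bases before to 50 after the annotated start (RefSeq, build GRCm38.p6). The interferon-stimulated response element was searched as GAAA, any 2 bases and GAAA again, on both strands, and is printed in capitals. For Isg15 (chr4:156200769-156201068, minus strand, printed 5′ to 3′ along the gene) the capitals cover 3 overlapping matches, and for Saa3 (chr7:46715627-46715926, minus strand) a single match.
Isg15: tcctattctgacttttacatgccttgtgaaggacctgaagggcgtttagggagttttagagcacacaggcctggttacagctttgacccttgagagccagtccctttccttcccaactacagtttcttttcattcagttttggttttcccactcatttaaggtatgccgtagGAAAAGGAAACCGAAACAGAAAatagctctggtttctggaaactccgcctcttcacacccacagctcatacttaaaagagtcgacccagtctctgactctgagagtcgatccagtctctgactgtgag
Saa3: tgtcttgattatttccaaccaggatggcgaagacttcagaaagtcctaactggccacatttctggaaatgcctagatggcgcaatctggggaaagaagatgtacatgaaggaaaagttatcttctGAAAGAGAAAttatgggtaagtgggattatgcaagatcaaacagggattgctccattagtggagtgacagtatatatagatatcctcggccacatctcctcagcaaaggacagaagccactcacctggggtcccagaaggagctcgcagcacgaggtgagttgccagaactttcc

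Of all 32851 promoter windows of this length, 1131 (3.44%) held a match. Among genes called at day 14, the motif lay in 4 of 7 higher genes with a window (Aif1, Isg15, Lgals9 and Spp1) and in 1 of 5 lower genes (Saa3). These are counts of genes with a match in any of their windows, and some genes had more than 1 window. Counted by window, as for the 3.44%, the motif lay in 5 of 16 windows of the called genes. Of 15 windows for genes of the interferon list 6 held it, and that of Oasl2 did not. The C/EBP-like motif TTNNGCAA, also on both strands, lay in 10.8% of all windows and in those of Lcn2, Saa3 and Spp1. A match describes letters in a window and not binding.

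Apoe and Aif1, genes of tissue macrophages, rose as well. Apoe was 2737, 3287, 2497 and 1521 CPM in sham, 2428, 4680, 3654 and 3670 CPM at stroke day 2 and 17641, 7438, 13256 and 5590 CPM at day 14. Day 14 lay above both other groups, and replicates 1 and 3 of that day were more than the other 2. The log2 change from sham was 2.18 ± 0.38 (edgeR adjusted p = 0.00952). Aif1, which encodes the actin-binding IBA1 of macrophages and microglia, was 52.5, 108, 64.2 and 40.9 CPM in sham, 137, 259, 214 and 173 CPM at day 2 and 450, 336, 473 and 326 CPM at day 14. Its groups did not overlap, and the log2 change from sham to day 14 was 2.76 ± 0.42 (edgeR adjusted p = 0.00371).

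Spp1, Lgmn and Lgals9 also passed, but less securely. Spp1 was 12.5, 0, 188 and 0 CPM in sham and 4697, 872, 4313 and 296 CPM at day 14, a log2 change of 5.63 ± 1.11 (edgeR adjusted p = 0.0252). Leaving out sham replicate 1, 2 or 4 or day 14 replicate 1 moved its adjusted p to 0.0674 to 0.114, and without sham replicate 3 the fitted change was 8.33. Lgmn, the lysosomal protease legumain, was 265, 99.9, 100 and 0 CPM in sham and 936, 419, 753 and 455 CPM at day 14 (2.13 ± 0.42, adjusted p = 0.0252), and lost its call without sham replicate 2 or 3 or day 14 replicate 1 or 3 (adjusted p up to 0.12, edgeR). Lgals9, which encodes galectin-9, was 75.3, 8.18, 0 and 115 CPM in sham and 236, 189, 317 and 222 CPM at day 14 (2.64 ± 0.56, edgeR adjusted p = 0.048). It kept its call only without sham replicate 1 among the 8 fits that left out a sham or day 14 library, and its fitted change there was 4.29. Pooled over libraries, MdC3 held 522 CPM of Lgmn, 209 CPM of Lgals9 and 492 CPM of Spp1 at stroke day 2. At day 14 the pooled levels were 689, 250 and 2967 CPM. Lgmn and Lgals9 were thus already higher than in sham at day 2, where DESeq2 called both (adjusted p = 0.0323 each) and edgeR neither (adjusted p = 0.119 each).

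These genes are also expressed by microglia, whose marker list was higher in MdC3 at day 14, and the part of microglial transcripts was not tested. In day 14 libraries MdC3 held 22.4% of the microglial level of Apoe, 39.8% of that of Spp1, 31.2% of that of Lgmn and 32.5% of that of Aif1. For the microglial genes Tmem119 and P2ry12 the same figure was 2.59% and 0.552%.

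Among 12 tested macrophage maturation genes all 12 had a fold change above 0 at day 14 against sham, with a median log2 value of 1.54. Of these edgeR called Aif1, and DESeq2 called 6: Aif1, C1qa, C1qb, Cd63, Cd68 and Fcgr1. C1qb and Fcgr1 had edgeR values of 1.90 and 1.95 (edgeR adjusted p = 0.149 and 0.066). The lipid and phagolysosome list had 8 of 9 tested genes above 0, a median of 1.34 and 2 called by edgeR, Spp1 and Apoe, to which DESeq2 added Ctsb and Ctsd. The 5 tested MHC class II presentation genes were all above 0 (median 0.75), with 0 called by edgeR, 1 at an unadjusted p under 0.05, and Ctss called by DESeq2. Classical monocyte genes had a median of -0.12 over 14 genes, with 0 called by edgeR and 5 at an unadjusted p under 0.05, and DESeq2 called Ly6c2 higher and Chil3 lower. The nonclassical list had a median of -0.52 over 5 genes, with 0 called by either tool and 2 at an unadjusted p under 0.05 in edgeR. The signs and medians of all these lists carry the same limit of the filter on low counts.

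S100a8 was the fourth gene lower at day 14 than in sham, beside Saa3, Lrg1 and Lcn2. It encodes a calcium-binding protein that neutrophils hold in very large amounts, and it was named although the rule leaves it out. It was 3301, 1618, 796 and 0 CPM in sham, 82.9, 66.3, 185 and 582 CPM at stroke day 2 and 0, 0, 4.66 and 0 CPM at day 14. Sham replicate 4 overlapped with day 14. The pooled level was at least 189-fold lower at day 14 (floor of 3 counts over the group; edgeR adjusted p = 0.0237), and MdC3 stood at 1.45% of the granulocyte level in sham. Leaving out sham replicate 1, sham replicate 2 or day 14 replicate 1 ended the call, with edgeR adjusted p of 0.0623, 0.0585 and 0.0674.

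**Figure D3:**
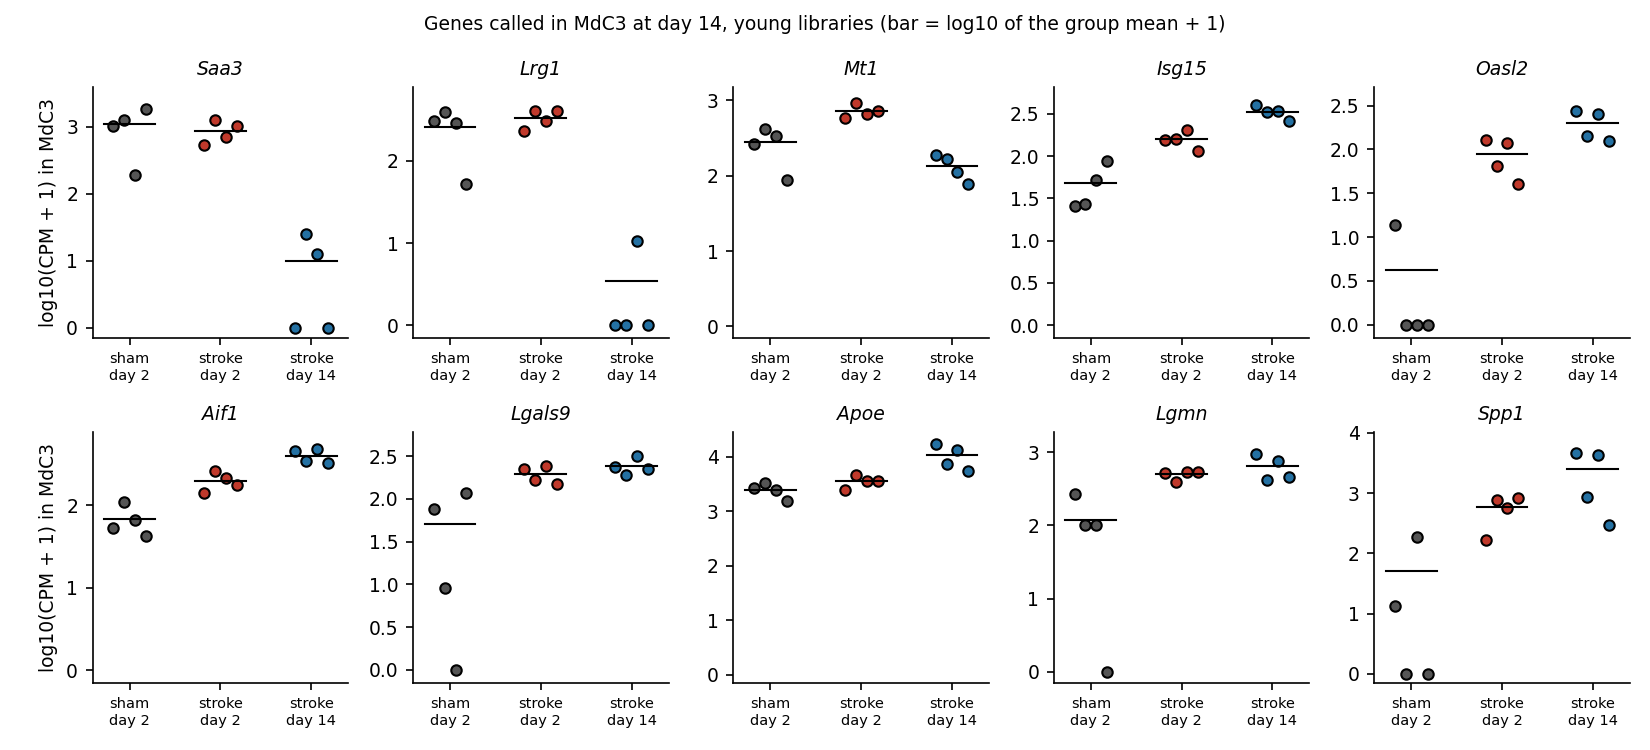
Level of 10 genes called in MdC3 at day 14, as log10(CPM + 1), in the 4 libraries of each young group; points are libraries and horizontal bars mark the group mean. Saa3 and Lrg1 drop to between 0 and 24.0 CPM at day 14, whereas Isg15 climbs from at most 86.4 CPM in sham to at least 259 CPM at day 14.

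The last comparison within the young mice asked whether the difference between stroke days was itself different in MdC3 and in the other monocyte-derived cells. The subtype codes were cut from these same expression values, so membership of MdC3 depends on the levels compared. The p-values and calls below do not account for that, including those against MdC4 and MdC5 alone. An interaction of cell class and day, with the library as a block, was fitted with edgeR over 6009 genes in the 8 young stroke libraries. It passed for 105 genes (1.75%), of which 51 had a more positive day 14 change in MdC3 (0.849%) and 54 a more negative one (0.899%), with a median over all genes of -0.06. Without TMM scaling the median was 0.07 and the split was 103 to 36. The other cells changed their own makeup between the days, from mostly MdC1 and MdC2 to mostly MdC4, MdC5 and MdC6. Against MdC4 and MdC5 alone, which were present at both days, 35 of 4821 genes passed and 21 of these were among the 105. The count was 65 without day 2 replicate 1, 66 without day 14 replicate 2 and 62 without day 14 replicate 3.

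Ccl2 had the highest value among the named genes. It was 217, 93.7, 360 and 121 CPM in MdC3 at day 2 and 1005, 142, 226 and 104 CPM at day 14, so that the days overlapped. In the other cells it was 1344, 951, 1895 and 2746 CPM at day 2 and 360, 468, 604 and 390 CPM at day 14, without overlap. The interaction was 2.69 ± 0.32 on the log2 scale (SE; edgeR adjusted p = 4.12e-10) and 2.29 against MdC4 and MdC5 alone. Day 14 replicate 1 weighed heavily: without it the value was 1.21, and DESeq2 with all libraries gave an adjusted p of 0.111. Sike1, a suppressor of IKKε, was 28.2, 27.0, 27.3 and 35.4 CPM in MdC3 at day 2 and 58.7, 84.8, 98.6 and 42.4 CPM at day 14, while the other cells went from 46.8 ± 5.67 to 24.9 ± 6.43 CPM (SD, n = 4). Its interaction was 2.13, and it did not pass without day 14 replicate 3 (edgeR adjusted p = 0.115).

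Genes of motility had a more positive day 14 change in MdC3 than in the other cells. S100a10, a calcium-binding partner of annexin A2, was 911, 940, 1604 and 1668 CPM in MdC3 at day 2 and 539, 530, 1189 and 1016 CPM at day 14, and in the other cells 1297 ± 458 and 302 ± 114 CPM (SD, n = 4). The interaction was 1.33, and 0.80 against MdC4 and MdC5. Of the 15 migration and adhesion genes 8 passed with a positive value and 1, Itga4, with a negative one, and the list median was 0.73 against -0.06 for all genes. Without day 14 replicate 3 the positive count was 5. Against MdC4 and MdC5 alone S100a10 was the only one of them that passed. Of 17 chemokine and cytokine genes, 5 passed with a positive value (Ccl2, Ccl6, Ccl12, Il1b and Osm) and none with a negative one, and Ccl2 and Ccl12 passed against MdC4 and MdC5. This count depended on the setting: DESeq2 called only Ccl6, and edgeR called 8 without day 2 replicate 2 and 3 without day 2 replicate 4 or without day 14 replicate 2 or 3. Ccl3 passed with a negative value without day 2 replicate 4, and Ccl4 without day 14 replicate 1. Among 14 classical monocyte genes, Chil3, Fn1, S100a4 and S100a6 passed with a positive value and Ly6c2 and Plac8 with a negative one, and of these Ly6c2 passed against MdC4 and MdC5.

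Among genes with a more negative change in MdC3, Saa3 had an interaction of -3.60, and -3.23 against MdC4 and MdC5. It was 384 ± 127 CPM at day 2 and 39.5 ± 15.6 CPM at day 14 in the other cells (SD, n = 4), so the lower level at day 14 was shared but larger in MdC3. Clec12a, an inhibitory lectin receptor of myeloid cells, was 234, 110, 212 and 183 CPM in MdC3 at day 2 and 107, 47.1, 316 and 47.3 CPM at day 14. In the other cells it went from 50.7 ± 25.5 to 201 ± 31.3 CPM (SD, n = 4), and the interaction was -2.47 (-2.03 against MdC4 and MdC5). The value was -3.39 without day 14 replicate 3, the library with the high level. Arhgap15, a Rac GTPase-activating protein, was 135, 153, 155 and 173 CPM in MdC3 at day 2 and 70.6, 93.1, 82.7 and 141 CPM at day 14, with an interaction of -1.85. Tmem176b, a membrane protein of myeloid cells, was near 147 and 146 CPM on average in MdC3 at the 2 days and 67.3 and 214 CPM in the other cells, with an interaction of -1.63.

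The other genes named by the rule were Emp1, Rgcc, Trem3, C5ar1, Hip1, Capn2 and Adam8, with interactions between 1.33 and 2.11, and Jaml, Calhm6, Apoc1, Prkcb, Ly6i and Ppfia4, between -2.37 and -1.66. Emp1, an epithelial membrane protein, was the only one of these that also passed against MdC4 and MdC5, at 2.60, and it rested on day 14 replicate 1, without which it was 0.73 (edgeR adjusted p = 0.78). Each of the other 12 lost its call when at least 1 of the 8 libraries was left out. With the replicate number as a block within each cell class, Trem3, Prkcb and Ppfia4 did not pass (edgeR adjusted p = 0.068, 0.0858 and 0.0545).

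**Figure D4:**
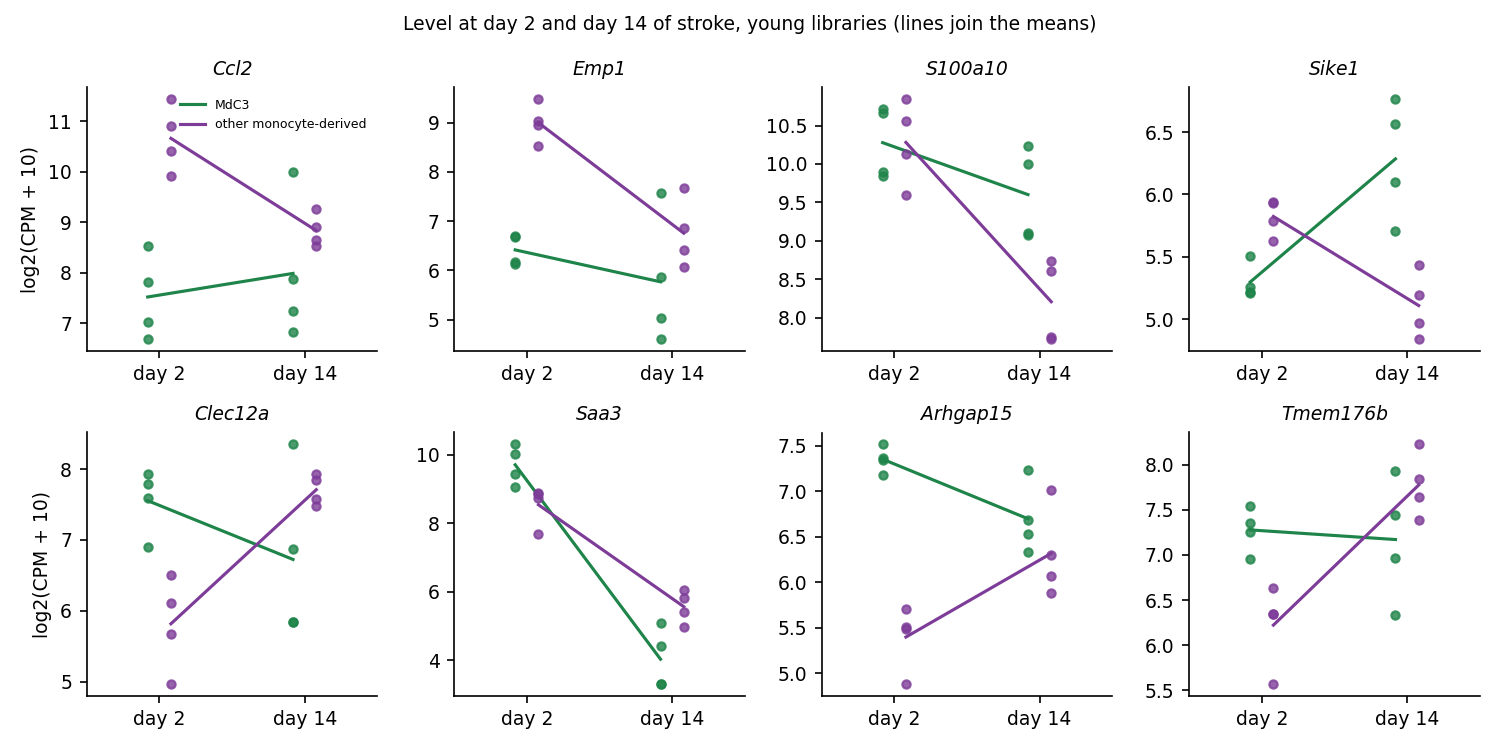
Level of 8 genes, as log2(CPM + 10), at stroke day 2 and day 14 in MdC3 (green) and in the other monocyte-derived cells (purple) of the 4 young libraries per day; points are libraries and lines join the means. Ccl2 averages 1734 and 455 CPM at day 2 and day 14 in the other cells and 198 and 369 CPM in MdC3, where 1 library at day 14 stands high.

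Between aged and young stroke libraries at day 2, no gene of 1897 passed in MdC3 by edgeR (0%), with 89 at an unadjusted p under 0.05 and 0 called by DESeq2. The highest list median was 0.60 for chemokines and cytokines, with 9 of 10 tested genes above 0. The interferon response list followed at 0.52, with 7 of 8 above 0. Migration and adhesion had the lowest, -0.32, with all 14 below 0. The median of all genes was -0.03. Here too a gene could pass the filter on low counts through 1 group alone. With sex as a covariate, again 0 genes passed, with 121 at an unadjusted p under 0.05. The test had 3 aged libraries, 1 of them male, and 4 young male libraries, and age and gene table cannot be told apart in it.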

How the data were processed

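Brain cells were profiled by Drop-seq in 18 libraries, and blood cells in 11 libraries were used for blood monocytes only. The authors deposited expected counts per gene and cell, which are not whole numbers, and the deposited metadata give each cell's count of genes detected, its percent of mitochondrial counts and its cell type codes. The submitters' processing notes name mm10 and Seurat with no role. The aligner, the counter, the step that made the counts fractional and the filter on cells are not given in the sources used here. Depths per library and per MdC3 sum are given above, and intervals cover counting error only.

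Members, gene lists and tests were chosen with earlier results of these data known. Counts were summed over the MdC3 cells of each library with at least 20 such cells, rounded to whole numbers, filtered with filterByExpr, scaled by TMM and fitted with edgeR 4.0.16 in R 4.3.3, with 1 estimate of spread over the 3 young groups. Genes were called at a Benjamini-Hochberg adjusted p under 0.05. DESeq2 1.42.0 was an alternative. Shares were compared over libraries by exact permutation (scipy 1.17.1). Levels are CPM of the summed counts. The code was tested on simulated data. Scrublet (scanpy 1.11.5) marked 20 of 55268 brain cells (0.0362%), too few to be used, so doublets were not removed. Instead the 5% of monocyte-derived cells with most counts were left out as an alternative.

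Genes were named by rule. For the tested comparisons these were the 10 highest and 10 lowest log2 changes among called genes that averaged 20 CPM or more and did not overlap between groups. For MdC3 against the other cells they were the 20 highest and 10 lowest median ratios among genes that averaged 50 CPM or more and had 1 sign in every library. The 4 most abundant members of a list and its called members could also be named. Predicted, mitochondrial, ribosomal protein, haemoglobin and immune receptor genes, and genes that another brain cell type of at least 500 cells holds at more than 10 times the MdC3 level, were left out of the first 2 sets. Other genes named were chosen after their values were seen. Some genes within the rule are not reported here. Promoter windows came from RefSeq (GRCm38.p6). The labels do not say that a replicate number marks a shared animal or day. In the data, the deviations of same-numbered stroke libraries of day 2 and day 14 from their group means were correlated in all 4 pairs (r = 0.28 to 0.75), whereas those of sham with stroke libraries ranged from -0.183 to 0.208 over 8 pairs. Blocks over the stroke libraries were therefore added. Stroke pairs of different number ranged from -0.562 to 0.345. Of these, the pairs within a mitochondrial set gave 0.319, 0.345, -0.0219 and 0.194. Replicates 1 and 2 were the low mitochondrial set at both stroke days, so replicate number and set cannot be fully told apart in these blocks. Alternatives are given in the closing section.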

Additional observations from a re-analysis of the deposited data

Results flagged for a closer look

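In groups of 4 libraries, 36 sets of values of called genes were examined for a library far from the other 3, and 4 were found. The chance rate of about 1 in 20 does not hold where the other 3 libraries are all at 0, as for Oasl2 and Lrg1 below. The count of 4 is therefore not read against it. Oasl2 was 12.6 CPM in MdC3 of sham replicate 1 and 0 in the other sham libraries. Spp1 was 188 CPM in sham replicate 3, with the next at 12.5 CPM. Lgmn was 397 CPM in stroke day 2 replicate 2, below the other 3 libraries of that day, which held 521 to 545 CPM. Lrg1 was 9.66 CPM in day 14 replicate 3 and 0 in the other day 14 libraries. Each of these rests on few MdC3 counts apart from Lgmn.

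A difference between MdC3 and the other monocyte-derived cells in the change from stroke day 2 to day 14 was found for the 20 genes named by rule, by the interaction in edgeR with an adjusted p under 0.05. The subtype codes came from the same expression values, which these p-values do not account for. The log2 difference was positive, with a higher relative day 14 level in MdC3, for Ccl2 (2.69), Sike1 (2.13), Emp1 (2.11), Rgcc (1.74), Trem3 (1.65), C5ar1 (1.56), Hip1 (1.53), Capn2 (1.41), Adam8 (1.33) and S100a10 (1.33). It was negative for Saa3 (-3.60), Clec12a (-2.47), Jaml (-2.37), Calhm6 (-2.31), Apoc1 (-2.22), Prkcb (-2.14), Ly6i (-1.90), Arhgap15 (-1.85), Ppfia4 (-1.66) and Tmem176b (-1.63). Ccl2, S100a10, Saa3, Clec12a, Arhgap15 and Tmem176b kept an edgeR adjusted p under 0.05 without any 1 library and against MdC4 and MdC5 alone.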

How the results depend on the processing

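Called genes depended on the processing. Between stroke day 14 and day 2, 5 genes in the fit reported became 9 with DESeq2, 22 without a filter on low counts, 10 with counts rounded up, 9 with the mitochondrial set as a term, 58 with DESeq2 and that term, 1 with libraries thinned to the smallest total, where fewer genes could be tested, and 3 to 9 when single libraries were left out. Without the 5% of monocyte-derived cells with most counts, where 1350 genes could be tested, it was 4, all lower at day 14, with 0 at day 2 against sham and 10 at day 14 against sham, where Spp1 lost its call (edgeR adjusted p = 0.072) and Oasl2 was not tested. At day 2 against sham, 0 became 18, 59, 4 and 94 with DESeq2, no filter, the mitochondrial term and DESeq2 with that term, 1 with only the 2 groups fitted, and 0 to 1 without single libraries. At day 14 against sham, 11 became 34, 70, 17, 27 and 54 with DESeq2, no filter, rounding up, the mitochondrial term and DESeq2 with it, 5 with only the 2 groups fitted, 2 when thinned and 8 to 16 without single libraries. The interaction count of 105 became 48 with DESeq2, 35 against MdC4 and MdC5 and 62 to 149 without single libraries. Aged against young, 0 became 8 without a filter. Beyond the settings that test fewer genes or samples, the cause was not tested.

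With the replicate number as a block over all 3 young groups the counts were 5 for day 14 against day 2, 1 for day 2 against sham and 19 for day 14 against sham, and 2 for aged against young. Over the stroke libraries alone, where same-numbered libraries deviated together, the block gave 10 for day 14 against day 2. Within each cell class it gave 122 for the interaction, of which 95 were among the 105. Apart from Trem3, Prkcb and Ppfia4, these blocks changed no call of a gene named by rule from the fits. By exact signs within pairs, the share differences of -61.0 and -62.7 points of monocyte-derived cells from sham, and of 5.61 (day 2 against sham) and -4.56 points (day 14 against day 2) of all cells, had adjusted p = 0.15 each, where 4 pairs are too few to pass.

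With cells of at least 800 counts only, the MdC3 share of monocyte-derived cells differed from sham by -48.6 points at day 2 and -54.2 at day 14 (exact permutation, adjusted p = 0.0571 each), and the share of all cells by 4.32 at day 2, by -0.808 at day 14, which turned the sign, and by -5.13 between stroke days. Against leukocytes other than microglia these 3 were 0.149, -5.40, which turned the sign, and -5.55. Without single libraries, where fewer libraries raise the smallest p, the shares of monocyte-derived cells differed by -63.7 to -55.7 and -65.5 to -57.5 points, and those of all cells by 5.00 to 6.24 at day 2 against sham and -5.19 to -3.96 between stroke days (adjusted p = 0.0686 to 0.0857).

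Of the alternatives for genes named from the fits, 361 kept direction and side of the threshold, 96 lost the call and none reversed. Scrublet-based removal, a fit on males only and a batch from the labels were not run. The mitochondrial term, the thinning, the blocks over stroke libraries and within cell class, the pairs for shares of all cells, the block for aged against young, the removal of cells with most counts and the MdC4 and MdC5 comparison were chosen after seeing the data. Few MdC3 counts per sham library limit all sham comparisons.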
